A study of Rattus norvegicus with 8 samples.

Results

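The genes described here belong to the defence of cells against reactive oxygen and foreign chemicals: Gstp1 and Gstm7, which encode glutathione transferases, the peroxidase genes Gpx1 and Gpx4, the Nrf2 targets Srxn1, Nqo1, Gclc, Gclm and Txnrd1, and the cytochrome P450 gene Cyp1b1. They were taken as every probe set whose only platform gene symbol is one of these 10 names, which gave 10 of the 14217 genes that have such a probe set, and 15 of 31042 non-control probe sets on the array. Of these 15, 14 passed the signal minimum used for testing. The study hybridised testis RNA of adult rats (Sprague-Dawley) to 8 one-colour arrays, 1 per sample: 3 of untreated rats (control), 2 of rats 8 h after a single dose of Adjudin of 50 mg/kg body weight by gavage, and 3 of rats 4 d after the same dose. Adjudin is an oral compound known to loosen the junctions between Sertoli cells and the germ cells they nurse, so that germ cells are shed. A vehicle is mentioned nowhere for the controls. Nothing says that the arrays of a group came from different animals, and p-values therefore reflect only how these samples varied, possibly for technical reasons.

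As background, glutathione is a small thiol made in a first, rate-limiting step by the enzyme of Gclc (catalytic subunit) and Gclm (modifier subunit). Transferases join it to reactive compounds, and glutathione peroxidases use it to reduce hydrogen peroxide or lipid peroxides. The transcription factor Nrf2 (gene Nfe2l2) is held down by Keap1 and, when released, binds antioxidant response elements beside genes such as Nqo1, Srxn1, Gclm and Txnrd1. In the testis Gpx4 has a further role, as its protein becomes a structural part of the sperm mitochondrial sheath, and its transcript is abundant in spermatids. Cyp1b1 answers mainly to another sensor, the Ah receptor.

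The sequences around the start sites of these genes were searched for the cores of those elements. The RefSeq promoter table (build GRCr8) held 13 windows for the 10 genes, each running from 250 bases before to 50 bases after a start. The antioxidant response element was searched as TGACNNNGC or TGAGNNNGC on both strands, the AP-1 element, which can overlap it, as TGANTCA, and the Ah receptor element as GCGTG. An antioxidant element match was present in 7 of the 13 windows, against 27.1% of all 33469 windows in the table. These windows belonged to Gstp1, Gstm7, Gpx1, Gpx4, Srxn1, Gclm and Txnrd1, while Nqo1, Gclc and Cyp1b1 had no match in this stretch. The AP-1 core was in 2 windows, those of Gstp1 and Srxn1, against 7.33% of all windows, and the Ah receptor core in 9, against 29.7%. These 9 windows belonged to 7 of the 10 genes. Windows of Gpx4 overlap in part, so the same Ah receptor core matches counted there more than once. A match is only a description of letters, and the arrays carry no measure of binding. Windows of 4 genes are shown because their values were unlike. Gstp1 had the largest 4 d difference of the 10 genes, and Srxn1 rose in 1 of its 3 probe sets. Gclm differed by only 0.01 on the log2 scale, and Cyp1b1 had its highest mean at 8 h, where it did not pass the test. The windows are those of Gstp1 (chr1:210769686-210769955, minus strand), Srxn1 (chr3:161064562-161064831, plus strand), Gclm (chr2:213031885-213032154, plus strand) and Cyp1b1 (chr6:21094315-21094584, plus strand). Each is printed 5′ to 3′ in the direction of the gene up to 20 bases after the start; capitals mark antioxidant element matches in the first 3 and Ah receptor core matches in Cyp1b1.
Gstp1: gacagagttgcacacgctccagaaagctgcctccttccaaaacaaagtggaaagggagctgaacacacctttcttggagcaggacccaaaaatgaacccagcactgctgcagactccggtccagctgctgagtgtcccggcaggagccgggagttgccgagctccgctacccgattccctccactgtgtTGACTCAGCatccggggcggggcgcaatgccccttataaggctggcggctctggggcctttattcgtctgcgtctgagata
Srxn1: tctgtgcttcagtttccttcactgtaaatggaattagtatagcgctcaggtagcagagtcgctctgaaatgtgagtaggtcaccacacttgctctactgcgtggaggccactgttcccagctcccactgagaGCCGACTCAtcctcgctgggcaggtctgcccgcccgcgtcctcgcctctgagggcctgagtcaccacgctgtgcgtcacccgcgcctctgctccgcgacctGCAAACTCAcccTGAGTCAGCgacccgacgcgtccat
Gclm: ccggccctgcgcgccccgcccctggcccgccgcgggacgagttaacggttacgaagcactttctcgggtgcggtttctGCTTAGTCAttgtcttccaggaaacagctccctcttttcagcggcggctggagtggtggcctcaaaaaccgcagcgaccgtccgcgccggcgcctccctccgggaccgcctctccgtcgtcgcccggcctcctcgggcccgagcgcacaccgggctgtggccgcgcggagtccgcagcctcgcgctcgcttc
Cyp1b1: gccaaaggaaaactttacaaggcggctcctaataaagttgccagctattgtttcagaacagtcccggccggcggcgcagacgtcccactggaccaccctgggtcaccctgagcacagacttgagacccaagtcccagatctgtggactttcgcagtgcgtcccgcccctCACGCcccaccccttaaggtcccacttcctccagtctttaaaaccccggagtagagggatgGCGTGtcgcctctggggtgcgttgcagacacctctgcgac
In Gstp1 the match TGACTCAGC lay 61 to 53 bases before the start, and its first 7 bases were also an AP-1 core. Srxn1 held 3 matches, of which the one across the start, TGAGTCAGC, also held an AP-1 core. The Gclm match read TGACTAAGC on the opposite strand, 172 to 164 bases before the start.

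Signals are MAS 5.0 values scaled so that each array had a 2% trimmed mean of 500. Differences and folds are on the log2(signal + 32) scale, which understates those of dim genes, and a change is called at an adjusted p below 0.05 in limma over 19785 probe sets, with Benjamini-Hochberg adjustment. Between 51.6% and 59.0% of non-control probe sets reached a signal of 100 per array, and r between arrays within a group was 0.954 to 0.978. Per the array settings files the arrays fell into 3 hybridisation runs: control 2 and 4 d 2 formed run 2, and all groups were represented once in run 1 and once in run 3. Run 3 stood apart, with a median signal of 108.4 to 121.9 against 137.5 to 143.7 on the other arrays. Arrays of the same run deviated together, so calls are also given with the run as a block. As checks of the tissue, Prm2, a sperm protamine, was bright in the controls (20252.3 ± 3796.7, SD, n = 3), while none of the epididymis markers with a probe set (Adam7, Spag11a, Defb1) passed the signal minimum.

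At 4 d after Adjudin, 5 of the 10 genes rose above untreated testis (Gstp1, Gpx1, Srxn1, Gstm7 and Nqo1) and 0 fell. Over all 11241 genes tested, 7.63% were called higher and 5.19% lower in the same comparison. The 10 genes were chosen with earlier results of these data known, so a share above this background is no test of them. The median log2 difference was 0.69 over the 10 genes and 0.031 over all genes. With the run as a block, 8 of the 10 were called higher and 1 lower, while the background rose to 15.3% and 11.9%. A gene with several probe sets is counted by the tested one with the highest mean log2 signal over all 8 arrays, which lets a rise at 4 d bear on the choice. Chosen by the controls alone, an alternative added after seeing the data, other probe sets stand for Srxn1 and Gclc, neither of which was called. The higher calls were then 4 of 10 (6 of 10 with the block), against 7.48% (15.0%) of all genes, and the median of the 10 genes was 0.38. For 7 of the 10 genes all 4 d arrays lay above all controls, against 19.7% of all genes; by the probe sets chosen on controls alone the count was 5, against 19.3%. In a bulk tissue, more cells of a type and more RNA per cell cannot be told apart. The 3 comparisons share arrays, so their values are not independent of one another.

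Both transferase genes rose. Gstp1 encodes the pi class enzyme, which conjugates glutathione to electrophiles, and its signal was 1345.5, 1294.3 and 1145.1 in the controls, 1282.1 and 1667.1 at 8 h, and 5106.5, 5519.9 and 4541.8 at 4 d. All 4 d arrays lay far above all others, while the 8 h arrays overlapped the controls. The mean went from 1261.6 ± 104.1 (SD, n = 3) to 5056.1 ± 491.0 (SD, n = 3), a 3.93-fold rise with a log2 difference of 1.97 (SE 0.14, 95% interval 1.66 to 2.29, limma adjusted p = 8.13e-05). Within runs 1, 2 and 3 the log2 difference was 1.90, 2.07 and 1.96, and the probe set ranked at position 20 by p among the 19785 tested.

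Gstm7 encodes a mu class transferase. Its signal was 3451.1, 3905.3 and 3282.7 in the controls, 3548.5 and 3770.5 at 8 h, and 7887.6, 7663.0 and 9576.9 at 4 d. Only the 4 d arrays of Gstm7 stood above its control range. The mean rose 2.34-fold, from 3546.4 ± 322.1 to 8375.8 ± 1046.2 (SD, n = 3 each), with a log2 difference of 1.23 (SE 0.13, limma adjusted p = 0.000496). Mu class genes resemble each other closely, and whether transcripts of relatives added to this probe set was not tested.

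Of the peroxidase genes, Gpx1 rose and Gpx4 was not called without the block. Gpx1 encodes the cytosolic selenoenzyme that reduces hydrogen peroxide, and its signal was 1007.0, 1404.9 and 1684.0 in the controls, 1283.3 and 1655.1 at 8 h, and 3624.2, 3686.4 and 5067.8 at 4 d. The controls spread more widely than for the transferases, but the lowest 4 d array still exceeded the highest control by a wide margin. The log2 difference was 1.59 (SE 0.21, 95% interval 1.12 to 2.05, 3.00-fold, limma adjusted p = 0.00158).

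Gpx4 encodes the selenoenzyme that reduces lipid peroxides in membranes. Its signal was 28621.5, 26225.1 and 38346.2 in the controls, 27602.9 and 36406.2 at 8 h, and 21840.6, 22464.1 and 28899.4 at 4 d. The groups overlapped, and the highest control and the highest 4 d array were both of run 3. The log2 difference of -0.34 (SE 0.18, 95% interval -0.75 to 0.07) did not pass without the block (limma adjusted p = 0.319). Compared within runs, Gpx4 was lower at 4 d in each of the 3, by log2 differences of -0.39, -0.22 and -0.41, and it passed as lower with the run as a block (limma adjusted p = 0.00103) and without run 3 (adjusted p = 0.0253), 2 of 22 alternatives. Under quantile normalization the difference was -0.01 (adjusted p = 0.937). A second Gpx4 probe set stayed under the signal minimum, with signals from 12.8 to 172.1 over the 8 arrays, and was not tested.

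**Figure D1:**
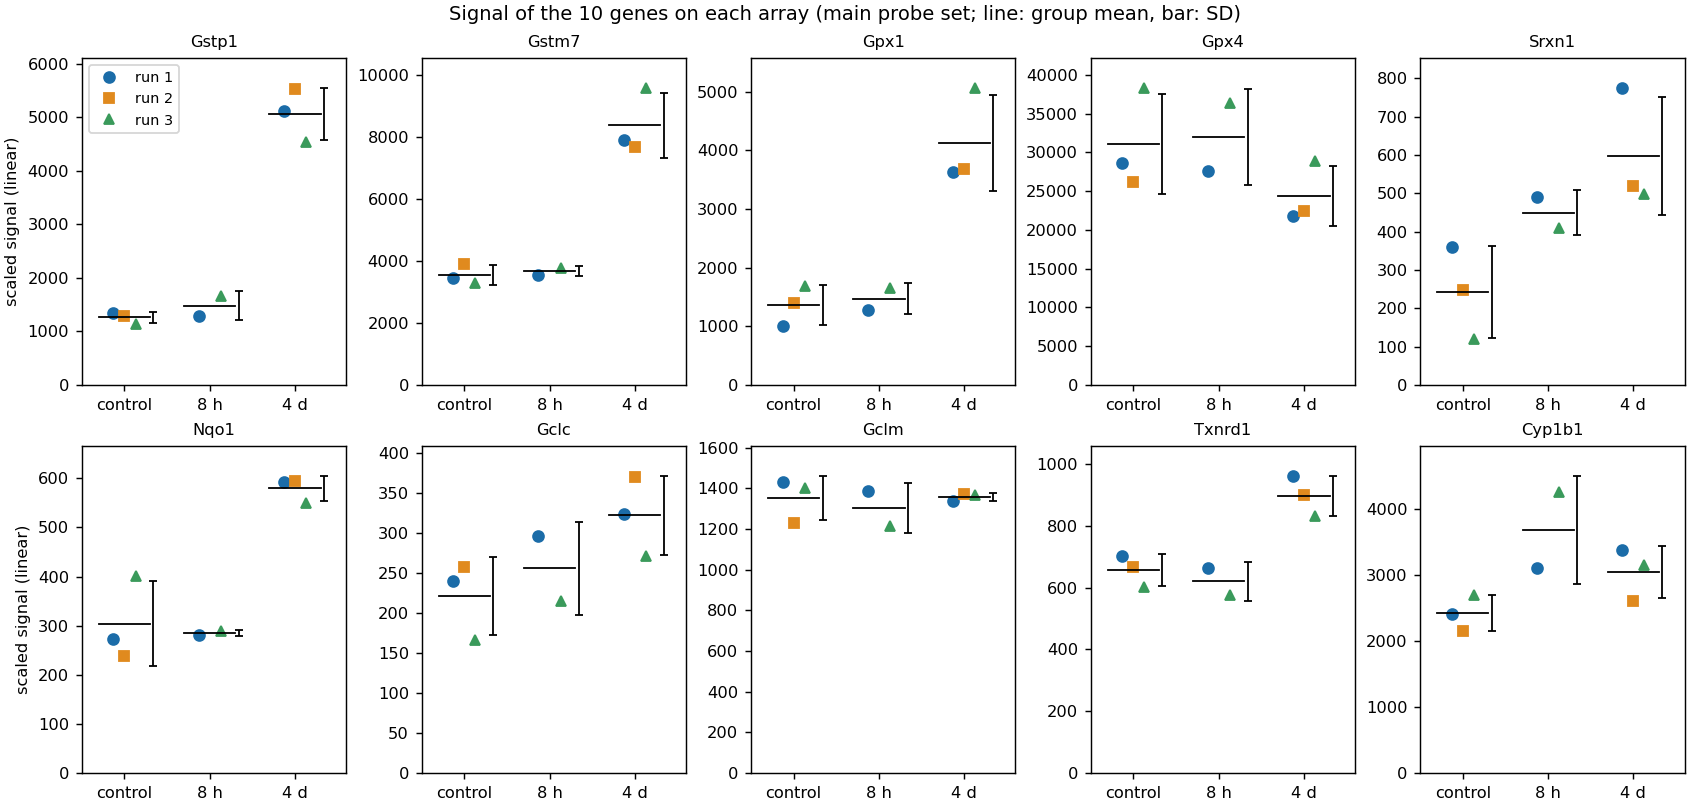
Scaled signal (linear axis from 0) on every array for the probe set of each of the 10 genes with the highest mean log2 signal, in the control, 8 h and 4 d groups. Points are single arrays, shaped by hybridisation run, with the group mean as a line and the SD as a bar; for Gstp1, Gstm7, Gpx1, Srxn1, Nqo1, Gclc and Txnrd1 all 3 of the 4 d arrays lay above all 3 controls.

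Srxn1 and Txnrd1 serve the thioredoxin side of thiol defence. Srxn1 encodes sulfiredoxin, which restores over-oxidised peroxiredoxins. The probe set that is brightest over all 8 arrays, though not in the controls, read 358.9, 248.7 and 119.5 in the controls, 490.4 and 408.6 at 8 h, and 774.9, 520.0 and 497.4 at 4 d. Every treated array, at either time, was above every control, and the controls differed widely among themselves. At 4 d the log2 difference was 1.28 (SE 0.32, 2.42-fold, limma adjusted p = 0.0318), and it passed more clearly with the run as a block (adjusted p = 0.00141). This call was lost with eBayes without trend on all arrays (adjusted p = 0.0561), without control 2 (adjusted p = 0.0707), without 4 d array 1 (0.129), 2 (0.0684) or 3 (0.0592), and without run 1 (0.113) or run 2 (0.144). The 2 other Srxn1 probe sets were not called, with log2 differences of -0.07 (adjusted p = 0.942, control mean 361.5 against 242.4 for the first) and -0.69 (adjusted p = 0.429), the second of them dim at a control mean of 95.1.

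Txnrd1 encodes the cytosolic selenoenzyme that recharges thioredoxin with NADPH. Its signal was 702.5, 665.3 and 601.7 in the controls, 664.7 and 574.5 at 8 h, and 959.5, 900.3 and 830.7 at 4 d, so the 4 d arrays were all above the rest. The difference was small but even, at 0.43, 0.42 and 0.44 on the log2 scale in the 3 runs. It did not pass without the block (limma adjusted p = 0.0785) and passed with it (adjusted p = 0.0145). A second probe set gave 0.41 with overlapping groups (adjusted p = 0.533).

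Nqo1 encodes the quinone reductase that is the classic readout of Nrf2. Its signal was 272.3, 237.3 and 401.8 in the controls, 281.1 and 289.5 at 8 h, and 593.6, 594.8 and 549.8 at 4 d. The 4 d arrays were close together and above the rest, and control 3, of run 3, was the highest of the others. The log2 difference was 0.89 (SE 0.19, 1.86-fold, limma adjusted p = 0.0165), but within runs it was 1.04, 1.22 and only 0.42 in run 3. The call was lost under median scaling (adjusted p = 0.0648) and quantile normalization (0.0547), without control 1 (0.0571) or 2 (0.0608), without 4 d array 1 (0.0709) or 2 (0.0568), and without run 1 (0.249) or run 2 (0.16).

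The subunits of the glutathione-making enzyme gave small differences or none. Gclm read 1431.1, 1231.1 and 1400.8 in the controls, 1388.9 and 1214.9 at 8 h, and 1337.6, 1371.3 and 1366.1 at 4 d. These ranges overlapped fully, and the log2 difference of 0.01 had a 95% interval of -0.27 to 0.28 (limma adjusted p = 0.985). The interval lies below the lower bounds for Gstp1, Gstm7, Gpx1 and Nqo1, of which the lowest was 0.47. Gclc, by the probe set brighter over all arrays, read 239.7, 257.5 and 166.5 in the controls, 296.5 and 214.7 at 8 h, and 323.3, 370.5 and 271.5 at 4 d. All 4 d arrays were above all controls, with a log2 difference of 0.49 (SE 0.21) that passed only with the run as a block (limma adjusted p = 0.203 without and 0.0292 with it). The other Gclc probe set, brighter in the controls by a narrow margin (mean 225.0 against 221.2), gave -0.01 (adjusted p = 0.979).

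**Figure D2:**
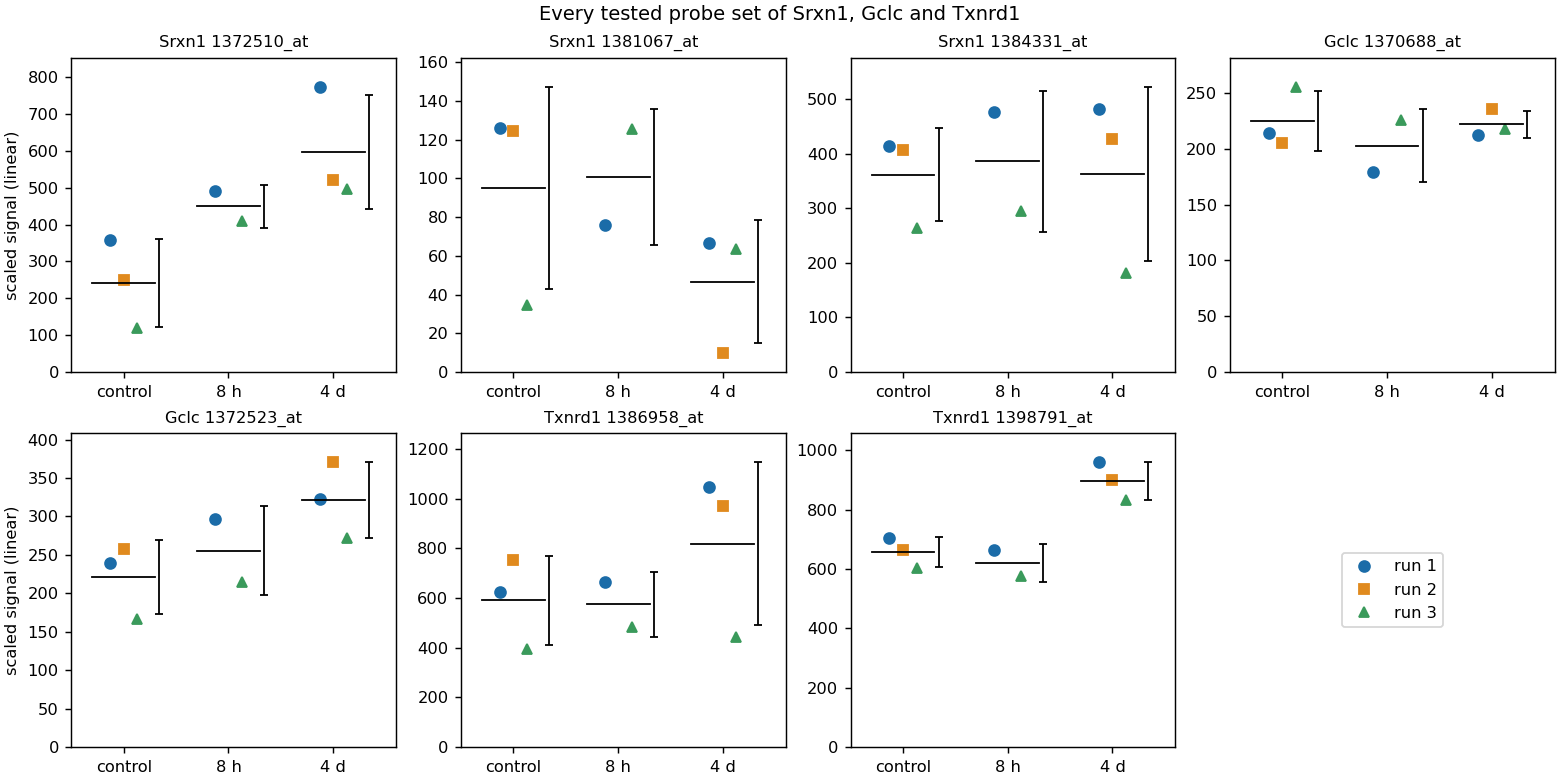
Scaled signal (linear axis from 0) on every array for each tested probe set of Srxn1, Gclc and Txnrd1, with points shaped by hybridisation run, the group mean as a line and the SD as a bar. The Srxn1 rise at 4 d was seen in 1 of its 3 probe sets (log2 difference 1.28, against -0.69 and -0.07).

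Cyp1b1, a steroid- and hydrocarbon-oxidising cytochrome P450, had its highest mean at 8 h. Its signal was 2414.3, 2154.6 and 2695.8 in the controls, 3110.0 and 4263.5 at 8 h, and 3374.1, 2601.9 and 3155.8 at 4 d. Both 8 h arrays exceeded all controls, while the 4 d arrays overlapped them. The 8 h log2 difference was 0.59 (SE 0.18, 95% interval 0.19 to 0.99, limma adjusted p = 0.762); blocking on the run left it uncalled at an adjusted p of 0.185. At 4 d it was 0.32 (adjusted p = 0.272), which passed by a narrow margin with the block (adjusted p = 0.0497).

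At 8 h none of the 10 genes was called in either direction in limma, against 0.0801% of all genes called higher and 0.0% lower. At an unadjusted p below 0.05 there were 2, Cyp1b1 and Srxn1, against 4.06% of all genes. These were the genes of the 10 whose 8 h arrays lay wholly above the controls, as did those of 7.92% of all genes. By the probe sets chosen on controls alone the count was 1, against 7.83%. For Srxn1 the 8 h log2 difference was 0.91 (SE 0.35, 95% interval 0.12 to 1.70, adjusted p = 1). For the genes with the largest late rises the 8 h differences were 0.21 for Gstp1 (95% interval -0.14 to 0.56), 0.05 for Gstm7 (-0.27 to 0.37) and 0.12 for Gpx1 (-0.40 to 0.64). Blocking on the run also called 0 of the 10, against 0.32% of all genes higher and 0.0089% lower. With 2 arrays at 8 h, intervals this wide do not show that the genes were unaltered.

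Set directly against 8 h, the 4 d arrays were higher for 4 of the 10 genes and lower for 0, against 4.46% and 3.58% of all genes. The log2 differences were 1.76 for Gstp1 (limma adjusted p = 0.000549), 1.46 for Gpx1 (0.00765), 1.18 for Gstm7 (0.00221) and 0.95 for Nqo1 (0.0313). The Nqo1 call was lost under quantile normalization (adjusted p = 0.0874), without 4 d array 1 (0.108), 2 (0.087) or 3 (0.0678), and without run 2 (0.102). Under median scaling, which moved the median of all probe sets in this comparison from 0.059 to -0.052, only Gstp1 stayed past the threshold. Without run 1, which leaves 1 array at 8 h that is assumed to vary like the other groups, 0 passed, and the count was 2 without 8 h array 1. With the run as a block, which called 10.3% of all genes higher and 9.5% lower, Txnrd1 was also called higher (0.51, adjusted p = 0.0196) and Gpx4 lower (-0.31, adjusted p = 0.00683). The 4 d arrays lay wholly above the 8 h arrays for 6 of the 10 genes, against 23.6% of all genes. Srxn1 did not differ past the threshold between the times, at 0.36 (95% interval -0.43 to 1.16, adjusted p = 0.686).

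**Figure D3:**
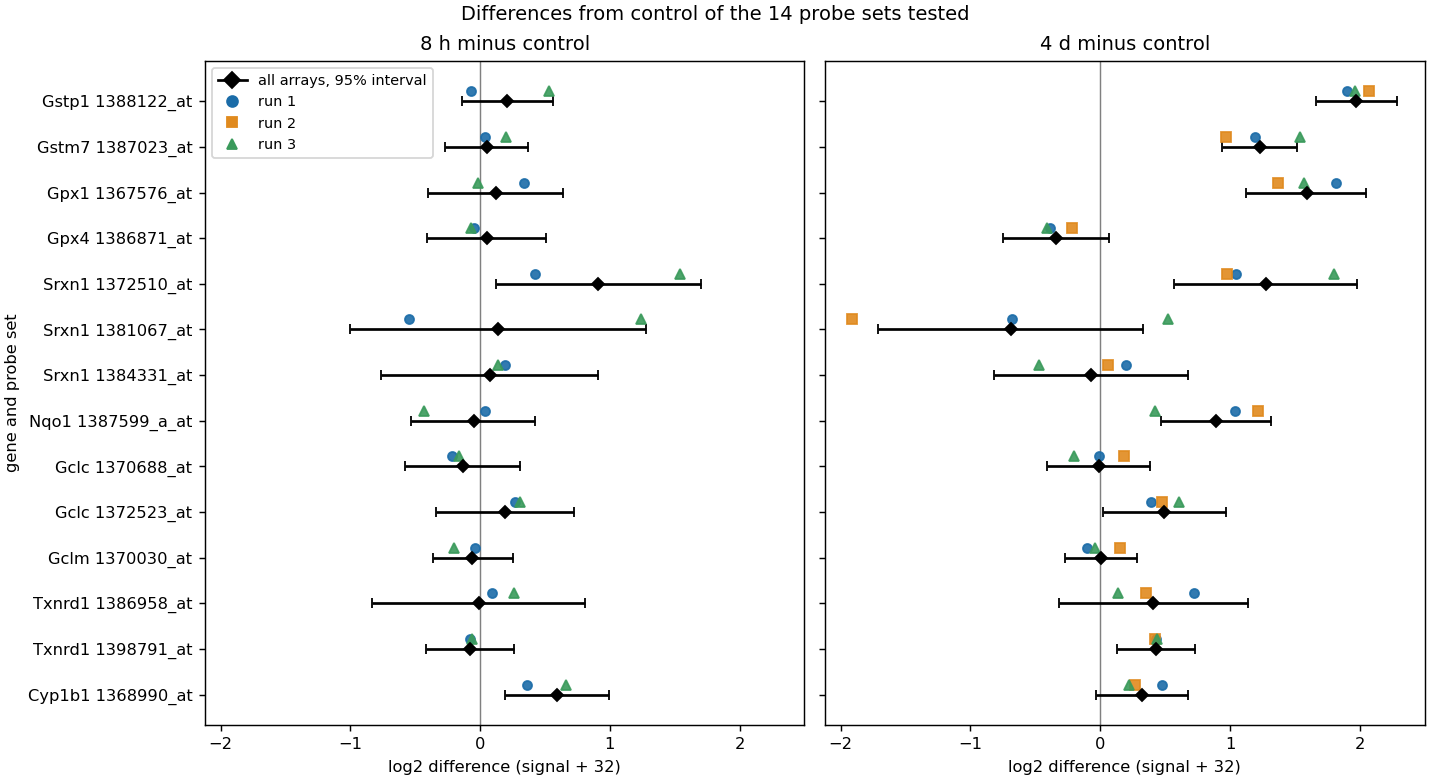
Log2 differences from control at 8 h and at 4 d of the 14 probe sets tested, with the 95% interval over all arrays as a bar and the difference within each hybridisation run as coloured points. At 4 d Gstp1, Gpx1 and Gstm7 stand at 1.97, 1.59 and 1.23, and at 8 h at 0.21, 0.12 and 0.05.

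Other genes of the pathway were followed in 8 lists, to be read against the 7.63% of all genes called higher and 5.19% lower at 4 d (15.3% and 11.9% with the run as a block). These lists, and those of cell types below, were likewise chosen with earlier results of these data known, so their counts are descriptive only. Among other glutathione transferases, 5 of 18 tested genes rose at 4 d and 2 fell, with a median of 0.22: the microsomal Mgst2 rose by 1.38 on the log2 scale and Gstm4 by 0.97, while Gstcd, which carries a transferase-like domain, fell by 1.37. Gstm4 was dim in the controls (mean 91.0) and passed only by a narrow margin. With the block 9 of the 18 were higher and 3 lower. Of 21 genes of glutathione synthesis, recycling and turnover, 4 rose and 2 fell (5 and 2 with the block), with a median of 0.15. These included Slc7a11, the cystine importer that feeds glutathione synthesis, at 1.39, Esd at 1.12 and the peptidase gene Anpep at 1.06, from a dim control mean of 61.8. The Slc7a11 difference was uneven, at 1.93, 0.23 and 2.01 within runs 1, 2 and 3 (limma adjusted p = 0.0448). Anpep reached the signal minimum of 100 only on 4 d arrays; without it and Ggt5, which reached it only on controls, 3 of 19 rose and 2 fell. Of 14 peroxidases, catalase and superoxide dismutases, 6 rose and 2 fell (8 and 3 with the block), with a median of 0.45. Gpx2 rose by 1.72 from a dim control mean of 34.7, Gpx8 rose by 1.04, and Gpx6 fell by 1.34 from 100.6. Gpx2 reached the signal minimum only on 4 d arrays and Gpx6 only on controls, so both entered the test through the group where they are high; without both, 5 of 12 rose and 1 fell. In the thioredoxin list 2 of 15 rose and 0 fell (4 and 0 with the block), with a median of 0.12, namely thioredoxin itself (Txn1, 1.34) and Txndc17 (0.72).

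Of 10 tested Nrf2 regulators 2 rose and 0 fell, with a median of 0.03. Nfe2l2, the gene of Nrf2, read 1428.9, 1479.4 and 1596.3 in the controls, 1534.4 and 1701.0 at 8 h, and 2242.9, 2111.5 and 2463.0 at 4 d, a log2 difference of 0.59 (SE 0.12, limma adjusted p = 0.0139). All 4 d arrays were above the others. Sqstm1, whose protein can bind Keap1, gave 0.47 (adjusted p = 0.0365), with 0.31 and -0.19 from its 2 other probe sets. Of 25 other Nrf2 targets, 8 rose and 1 fell, with a median of 0.48: the export pump gene Abcc3 rose by 2.57 from a dim control mean of 36.7, having reached the signal minimum only on 4 d arrays, Ugdh by 1.77 and the aldo-keto reductase gene Akr1b8 by 1.68. Osgin1, named after its values were seen, fell by 1.09. Without Abcc3, 7 of 24 rose and 1 fell. Blocking on the run gave 14 of 25 higher and 2 lower. In the Ah receptor and phase 1 list 1 of 6 rose (Cyb5r3, 0.97) and 0 fell, with a median of 0.25, and Ahr, Ahrr and Cyp1a1 were under the signal minimum. Of 19 genes of selenoproteins or of selenium supply and selenocysteine synthesis, 2 rose (Selenon, 0.79, and Selenoh, 0.63) and 1 fell (Lrp8, a receptor for selenoprotein P, by 1.77), with a median of 0.05 (3 and 1 with the block), so these counts stand near the background. At 8 h no gene of these lists passed in limma without the block. With it 1 passed, the heme oxygenase gene Hmox1 (1.05, adjusted p = 0.036), named after its values were seen.

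**Figure D4:**
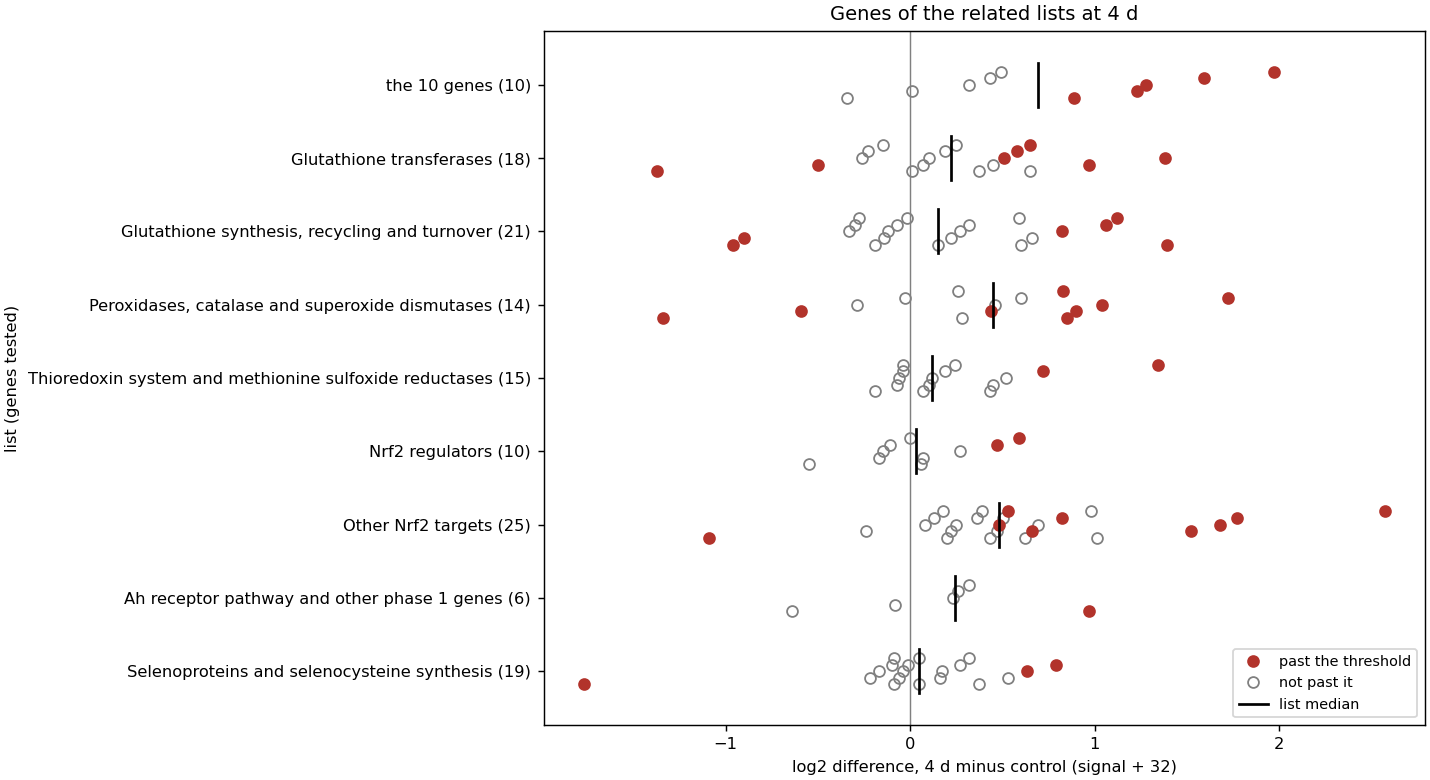
Log2 difference at 4 d against control of each tested gene among the 10 genes (top row) and in the 8 pathway lists, with the median of each as a line; filled points passed the adjusted threshold. List medians ran from 0.03 for the Nrf2 regulators to 0.48 for the other Nrf2 targets, against 0.031 for all genes and 0.69 for the 10 genes.

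Markers of the cell types in testis moved in the same comparison. Of 12 Sertoli markers 4 rose and 1 fell, or 6 and 2 with the run as a block (on the log2 scale Testin by 5.19 and Ctsl by 1.88), and the list's summed signal went from 28746 to 33840 in the controls to 53011 to 71104 at 4 d. Shbg (0.86) and Cldn11 (0.76) also rose, and Rhox5 fell by 1.5. Dhh (0.62), Clu (0.51), Inha (0.37), Wt1 (0.24), Amh (-0.08), Gata1 (-0.14) and Inhbb (-0.49) were not called without the block. Means in that sum went from 4169.4 to 15535.9 for Ctsl, 15970.3 to 22860.8 for Clu and 80.1 to 4026.1 for Testin. Of 16 leukocyte markers 11 rose and 1 fell, or 14 and 1 with the block (RT1-Da by 2.36, Cd74 by 1.88), with sums of 10491 to 11147 and 16291 to 20835. The marker that fell was Aif1 (-0.47, limma adjusted p = 0.0415), the brightest in the control sums, with a mean of 6835.6 against 4918.3 at 4 d. Cd14 (0.09) passed neither with nor without the block. Of 10 Leydig markers 3 rose and 0 fell, or 6 and 1 with the block (Hsd11b1 by 1.33, Scarb1 by 1.25), with sums of 15213 to 21134 and 22845 to 35930. Cyb5a (0.85) also rose. Insl3 (0.71), Hsd3b1 (0.7), Star (0.48), Cyp17a1 (0.4), Cyp11a1 (0.32), Lhcgr (-0.6) and Hsd17b3 (-1.14) were not called without the block. Hsd17b3 was the one called lower with it (limma adjusted p = 0.0495). Markers of elongating spermatids fell in 7 of 14 (Fscn3 by 1.35, Prm2 by 1.22) and rose in 0, and all 14 were lower with the run as a block. Their sums were 294283 to 433808 in the controls and 204124 to 283480 at 4 d. Round spermatid markers fell in 5 of 8 (Klhl10 by 0.76, Tssk2 by 0.73) and rose in 0, or fell in 7 with the block, with sums of 63150 to 75072 and 43537 to 47450. No spermatocyte marker of 6 passed with or without the block (Piwil2 -0.32, adjusted p = 0.204), with sums of 34164 to 42913 and 34805 to 42255. No endothelial marker of 5 passed without the block, and Esam passed with it (0.68, adjusted p = 0.115 without and 0.00669 with it), with sums of 743 to 870 and 1106 to 1261. Of 7 peritubular markers 1 rose (Myl9, 0.84) and 0 fell, or 2 and 1 with the block, with sums of 5150 to 5274 and 5624 to 7397. The median log2 difference of the 7 was below 0, at -0.13. Of 3 red blood cell markers 2 rose (Hbb, 1.28, and Alas2, 0.57), with sums of 3166 to 5107 and 6530 to 11394. The part of these shifts in the rises of Gstp1, Gstm7, Gpx1, Srxn1 and Nqo1 was not tested. Nor was their part in the Gpx4 difference, which was not called without the block.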

How the data were processed

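Testis RNA was hybridised to 1 Affymetrix rat array per sample, 8 in all. The authors deposited a linear MAS 5.0 signal intensity per probe set, per the submitters' processing notes; the version is not given in the sources used here. Each array's deposited values had a 2% trimmed mean of 250.1 and were rescaled to 500. Of 31099 probe sets, 57 controls were left out, and 19785 of the remaining 31042, those reaching 100 on 2 arrays, entered the test as log2(signal + 32) in limma 3.58.1 (R 4.3.3; lmFit and eBayes with trend) over all 8 arrays without a block, with Benjamini-Hochberg adjustment at 0.05. The pseudocount of 32 understates changes of dim genes. The number of arrays limits the precision. The procedure was tested on simulated data.

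Groups came from the sample titles, since every description reads as normal testis. Platform annotation gave 1 symbol for 20826 probe sets, several for 436 and none for 9780. The IDs of 20758 matched RefSeq (GRCr8), and 0 symbols needed an update. The settings files, used only for the run, name the sample type as mouse on the 2 arrays of run 2, against the rat chip type. Arrays hybridised in the same run deviated alike (r of deviations from group means 0.353 to 0.507, against -0.476 to 0.246 across runs), so runs, taken from the settings files, pair the arrays. Deviations within a group cancel, so the negative values across runs are partly forced and are no separate evidence.

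The genes and lists were chosen with earlier results of these data known. All 10 genes are named. From each pathway list the up to 3 genes, and from each cell type list the up to 2, with the largest change past the threshold at 4 d are named, or the smallest p where none passed. For the Sertoli and Leydig lists all tested markers are given, and for the leukocyte list also Aif1 and Cd14. Alternatives were the run block, other pseudocounts, a floor, other signal minimums, median and quantile scaling, eBayes without trend, only the groups compared, leaving out each array and, chosen after seeing the data, each run and the choice of probe set by the controls alone. Sequences are from RefSeq.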

Additional observations from a re-analysis of the deposited data

Results flagged for a closer look

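For 4 genes the Adjudin effect differed between the times, by the direct test of 4 d against 8 h in limma. The log2 difference was 1.76 for Gstp1, 1.46 for Gpx1, 1.18 for Gstm7 and 0.95 for Nqo1, each higher on all 3 of the 4 d arrays than on both 8 h arrays, as for 23.6% of all genes. Under median scaling only Gstp1 stayed past the threshold. The Nqo1 call was also lost under quantile normalization (limma adjusted p = 0.0874), on leaving out any single 4 d array (0.0678 to 0.108) and without run 2 (0.102). Leaving out an 8 h array leaves 1 array in that group, so only log2 differences are given. They were 0.93 for Nqo1 and 1.28 for Gpx1 without 8 h array 1, and 0.96 for Nqo1 without 8 h array 2. Groups of 2 or 3 arrays are too small to test for a single array that stands apart.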

How the results depend on the processing

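Over 22 alternatives each, Gstp1, Gstm7 and Gpx1 stayed past the threshold at 4 d against control, with log2 differences of 1.91 to 2.05, 1.08 to 1.36 and 1.39 to 1.75 and largest adjusted p of 0.0161, 0.0467 and 0.0392. No single probe set of the 10 genes reversed after passing. With the run as a replicate block, which the pairing of arrays bears out, the higher calls among the 10 genes came to 8 and the lower to 1 at 4 d against control, and the lower to 1 at 4 d against 8 h. The higher calls were 3 to 5 on leaving out each array, and 3 without run 1 or run 2; without run 3 there was 1 lower. At 4 d against 8 h the higher calls were 1 under median scaling, 2 to 4 on leaving out each array and 0 without run 1. Over all probe sets at 4 d against control, 1218 were higher and 738 lower; the counts were 2632 and 1819 with the block, 740 and 413 under median scaling, 582 to 1139 and 317 to 674 leaving out each array, 155 and 56 without run 1, and 346 and 170 without run 2. At 8 h the 13 higher and 0 lower became 53 and 2 with the block, 20 higher under median scaling, 7 higher with only the groups compared, 0 to 14 and 0 to 1 leaving out each array, and 0, 3 and 5 higher without runs 1, 2 and 3, with 1 lower without run 3. At 4 d against 8 h the 709 and 489 became 1695 and 1403 with the block, 282 and 239 under median scaling, 174 to 880 and 89 to 627 leaving out each array, 7 and 0 without run 1, and 207 and 136 without run 2, and 289 lower without trend. Leaving out arrays or runs tests fewer samples; the cause of the other shifts was not tested. Dim probe sets have little signal over background, which limits their differences.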
